A study of Mus musculus with 12 samples.

Results

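The genes described here encode the 5 subunits of the transcription factor NF-κB (Nfkb1, Nfkb2, Rel, Rela and Relb) and 5 proteins that restrain or modulate it (Nfkbia, Nfkbie, Bcl3, Tnfaip3 and Tnip1). They were chosen by name, through the gene symbols that accompany the deposited tables, and each symbol matched 1 row of a table of 50684 genes. All 10 passed the filter on low counts that left 19408 genes for testing. RNA came from the injected ear pinnae of C57BL/6 mice, 8 weeks old, which received 5 µl per injection into the dermis on consecutive days and were killed after 4 days of treatment. PBS alone was the control, and the other ears received 1 µg of IL-17A, 1 µg of IL-36γ, or 1 µg of each (IL-17A + IL-36γ). The study injected 5 mice per group and sequenced 3 of them, which gave 12 libraries. The labels name no genetic change in these mice, and whole ear tissue was used, so keratinocytes, dermal cells, cartilage, muscle and blood cells shared each sample. The comparisons ask whether either cytokine, or their combination, went with a different level of these mRNAs.

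NF-κB acts as a dimer of Rel-family proteins. In resting cells IκB proteins such as those made from Nfkbia and Nfkbie hold the dimers in the cytoplasm, and receptors for IL-1 family cytokines, IL-17 and TNF activate kinases that lead to the destruction of IκB. The freed dimers bind κB sites, and among their targets are their own inhibitors and several of their own subunits, which closes feedback loops. In skin the pathway is best known for chemokines and antimicrobial proteins made by keratinocytes and leukocytes.

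Because several of these genes are known targets of NF-κB, the stretches upstream of their start sites are shown first. RefSeq promoter entries (GRCm38.p6, the build of the counts) existed for 8 of the 10 genes, with 11 start sites, and Nfkb1 and Relb had none. The 250 bases before each start were searched on either strand for the 10-base κB consensus, overlapping matches included. It was found before 8 of the 11 starts and in 6 of the 8 genes, while 7.25% of 32851 mouse promoter windows of that length held it. The stricter motif GGGANTTTCC, itself a form of the consensus, was found before 2 of the 11 starts, those of Nfkbia and the most downstream of Nfkb2, and in 0.356% of all windows. None was found in the windows of Rela and Bcl3 or at the second start of Tnfaip3, and the windows of the last 2 Nfkb2 starts overlap in part. A match describes letters only, not binding. The Nfkb2 stretches below hold bases of annotated exons, and they and the Tnfaip3 stretch lie inside the gene spans given later. The stretches below read 5′ to 3′ on the strand of the gene, and capitals mark the letters of a κB match, or of overlapping matches.
Nfkbia, chr12:55492648-55492707, minus strand: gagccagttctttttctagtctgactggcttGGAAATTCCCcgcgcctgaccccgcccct
Nfkbie, chr17:45555580-45555639, plus strand: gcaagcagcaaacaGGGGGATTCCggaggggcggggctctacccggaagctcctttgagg
Tnip1, chr11:54962961-54963020, minus strand: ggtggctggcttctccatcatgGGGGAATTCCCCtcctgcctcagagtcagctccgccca
Tnfaip3, chr10:19015411-19015440, minus strand: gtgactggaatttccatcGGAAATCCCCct
Rel, chr11:23771010-23771069, minus strand: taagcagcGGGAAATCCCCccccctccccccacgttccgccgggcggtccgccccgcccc
Nfkb2, first start, chr19:46304692-46304721, plus strand: cgtcacGGGAATTCCCCccctcggggggcc
Nfkb2, last start, chr19:46305700-46305729, plus strand: ttttcGGGACTTTCCtaagcagcactaact

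Library totals ran from 25293468 to 34759293 counts, and the counts of the 10 genes in a library ran from 78 (Bcl3) to 5423 (Nfkbia). Values per library are given in replicate order as CPM, counts relative to the library total with TMM scaling. A gene is said to have risen or fallen where edgeR's quasi-likelihood test gave a Benjamini-Hochberg adjusted p below 0.05 over the 19408 genes, and to be called where the log2 fold change also exceeded 1 in size. P-values weigh a difference between groups against the spread between mice, as estimated in 1 fit of the 12 libraries. The skin label held, with 10 keratinocyte markers summing to between 16472 and 38730 CPM in a library. This sum differed between groups, with means of 18443 CPM in PBS ears, 23870 CPM under IL-17A, 31164 CPM under IL-36γ and 36114 CPM under both. Its members did not move alike. Under both against PBS, 2 of the 10 were called raised and 1 called lowered, around a median log2 fold change of 0.32. Against PBS, 6 of 6 adipocyte markers were called lowered under both cytokines, where 7 of the 7 cartilage markers tested also fell and 4 of them were called. The part of these shifts in the results on the 10 genes was not tested. PBS replicate 1 stood apart, with 409 CPM over 8 skeletal muscle markers against 3036 and 3493 CPM in the other PBS ears, and muscle also varied elsewhere, from 252 to 1335 CPM in IL-17A + IL-36γ and from 1211 to 3034 CPM in the single-cytokine groups. Of 5 red blood cell markers, 5 were called raised in IL-17A against PBS.

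Compared with PBS, 8 of the 10 genes rose under IL-36γ and 9 under the combination, mostly by small amounts, and scaling by library size alone brought these numbers to 3 and 5. After IL-17A none of the 10 genes was called by edgeR, where 2.1% of all genes were, and only Rel rose by adjusted p alone, where 7.44% of all genes rose. Unadjusted p lay below 0.05 for 3 genes in that comparison, and DESeq2 called none as well. The 8 genes raised after IL-36γ were all but Relb and Nfkbie, against 17.3% of all genes, and 1 of them, Tnfaip3, was called, against 5.11% of genes called raised. The 9 raised after the combination were all but Relb, against 23.7% of all genes, and Bcl3 and Tnfaip3 were called, against 7.35%. The treated ears did not overlap with PBS and were higher for 4 genes in the IL-17A group, 8 in the IL-36γ group and 9 in the combination, where 19.6%, 22.4% and 27.0% of all genes behaved this way. None of the 10 fell in these comparisons, which share the same PBS mice.

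The median log2 fold change of the 10 genes stood at 0.20, 0.30 and 0.45 in the IL-17A, IL-36γ and combination groups, beside 0.04, −0.02 and −0.03 over all genes tested. The scaling of the libraries bears on these small changes. Scaling by library size alone moved the median of all genes to −0.13, −0.16 and −0.17, and left Rel raised after IL-17A, Rel, Bcl3 and Tnfaip3 raised after IL-36γ, and these with Nfkb1 and Tnip1 raised after both. With that scaling 5 genes turned below 0 after IL-17A (Nfkb1, Nfkb2, Rela, Relb and Tnip1), and Relb did so after the combination. The count of 8 after IL-36γ also fell whichever library was left out, to between 4 and 7. It was 4 if PBS replicate 3 or IL-36γ replicate 1 was left out and 5 without IL-17A replicate 2. Nfkb1, Rel, Bcl3 and Tnfaip3 were raised in each of these named fits. After the combination Nfkbie and Rela no longer passed without PBS replicate 3, Nfkb2 without combination replicate 1, and Nfkbia and Tnfaip3 without combination replicate 3.

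**Figure D1:**
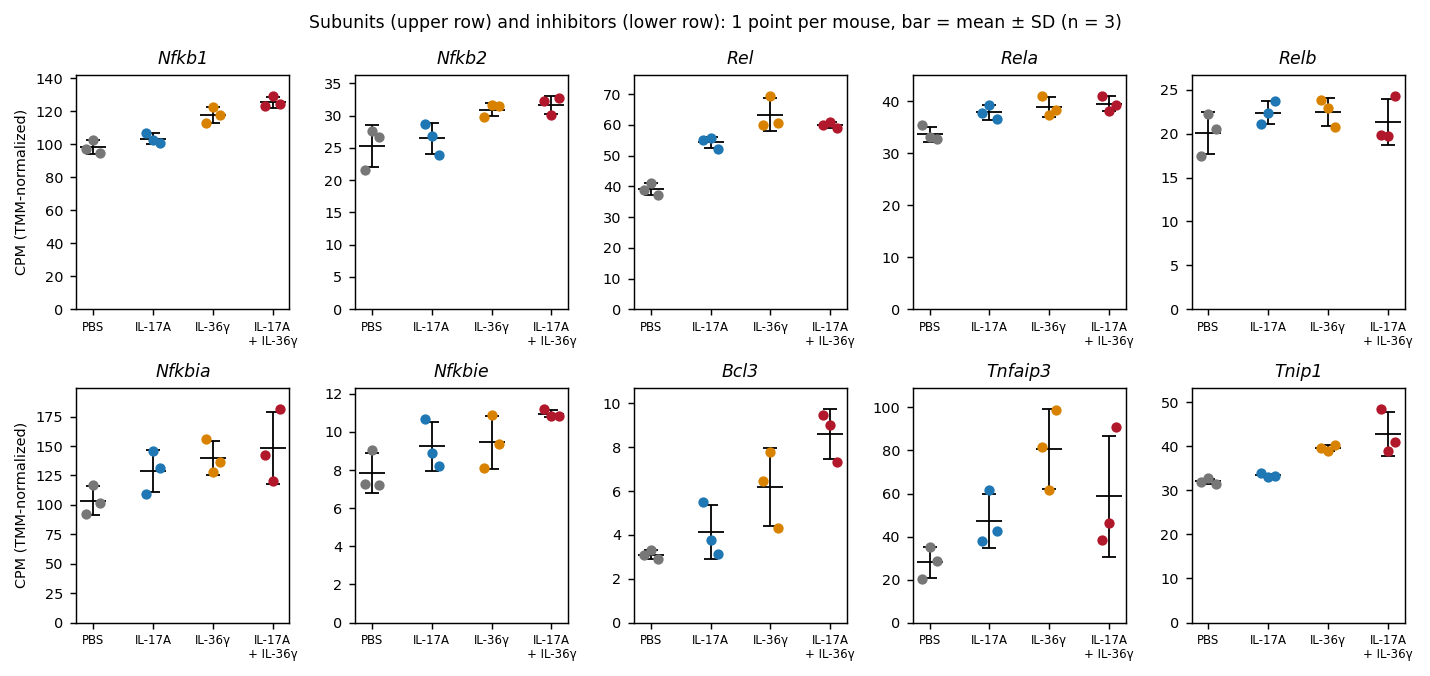
CPM of each of the 10 genes (vertical axes, from 0) in the 4 groups, with 1 point per mouse and bars for mean ± SD (n = 3). For Rel the 3 PBS ears lie at 37.3 to 41.03 CPM, below every treated ear, while Tnfaip3 spreads from 38.5 to 90.9 CPM within the combination and Relb overlaps throughout.

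Rel encodes c-Rel, a subunit best known from lymphoid and myeloid cells. The gene lies on chromosome 11 (mm10, 23736847 to 23770970, minus strand). Its level was 39.0, 41.03 and 37.3 CPM in the PBS ears and 55.0, 55.7 and 52.3 CPM in the IL-17A ears. After IL-36γ it reached 60.1, 69.5 and 60.5 CPM, and after the combination 60.1, 61.1 and 59.2 CPM. Every treated ear was above every PBS ear, and the IL-17A ears were below all ears that had received IL-36γ. On the log2 scale the change from PBS was 0.47 ± 0.07 (SE) with IL-17A (edgeR adjusted p = 0.00966), 0.70 ± 0.07 with IL-36γ (adjusted p = 6.69e-05) and 0.62 ± 0.07 with the combination (adjusted p = 5.18e-05). Without PBS replicate 3 the change after IL-17A was 0.43 and no longer passed (adjusted p = 0.0704).

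The level of Rel after both cytokines was below the sum of the separate changes. The interaction, that is the log2 effect of IL-17A among ears that also got IL-36γ less its effect among ears that did not, was −0.55 ± 0.10 (adjusted p = 0.0459). Rel was the 1 gene of the 10 to pass this test, where 0.551% of all genes passed and 0.423% with a negative sign. On the linear scale the PBS level plus both separate changes would give 78.6 CPM, and the mean after both was 60.1 CPM, an excess of −18.5 ± 3.45 CPM (SE). Its adjusted p lies near the threshold: it passed without PBS replicate 1 or IL-36γ replicate 2, and missed it without any of the 10 other libraries, at 0.0531 to 0.144, with the value between −0.58 and −0.49 in those fits. Scaling by library size alone gave −0.37 (adjusted p = 0.102), and with RLE scaling it did not pass either.

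Macrophage markers were higher in the same groups as Rel. The 10 markers summed to between 840 and 982 CPM in PBS ears, 1328 and 1811 CPM after IL-17A, 2032 and 2273 CPM after IL-36γ, and 1894 and 2056 CPM after both. Of these markers 8, 10 and 9 rose in the 3 comparisons with PBS, and 4 of the 10 passed the interaction test, all with a negative sign. None of them was at 0 in any group. Their part in the change of Rel was not tested, and in whole tissue more cells of a type and more RNA per cell cannot be told apart. Of 6 B cell markers Pax5 held no count in the PBS and combination groups and 3 had counts enough to be tested, and the 6 summed to at most 1.21 CPM in PBS ears and between 4.31 and 5.91 CPM in ears given IL-36γ with or without IL-17A. The sum of 10 T cell markers lay between 40.3 and 51.7 CPM in all libraries, but its members moved in opposite directions: 2, 4 and 5 rose in the 3 comparisons and 0, 1 and 2 fell, with 0, 3 and 3 called raised and 0, 0 and 1 called lowered. The part of B and T cell RNA in the change of Rel was not tested.

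**Figure D2:**
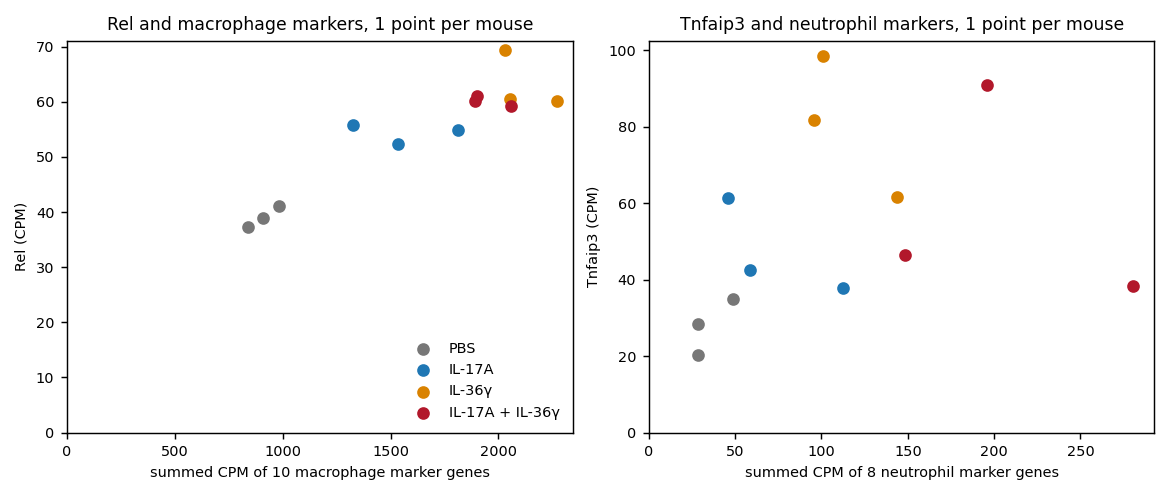
Left, Rel CPM against the summed CPM of 10 macrophage markers, and right, Tnfaip3 CPM against the summed CPM of 8 neutrophil markers, with 1 point per mouse coloured by group and linear axes from 0. PBS ears lie lowest on both axes of the left plot, at 840 to 982 CPM of markers, and the combination ear with the most neutrophil marker RNA (280 CPM) holds 38.5 CPM of Tnfaip3, the lowest of its group.

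The other subunits changed less. Nfkb1 encodes p105, the precursor of the p50 subunit, and lies on chromosome 3 (135584655 to 135691547, minus strand). It was measured at 97.1, 103 and 94.8 CPM in PBS ears, 107, 102 and 100.5 CPM after IL-17A, 113, 122 and 118 CPM after IL-36γ, and 123, 129 and 124 CPM after both. The groups given PBS and IL-17A overlapped, and both groups given IL-36γ lay above them. The log2 fold change was 0.07 ± 0.06 under IL-17A (adjusted p = 0.424), 0.26 ± 0.06 under IL-36γ (adjusted p = 0.00684) and 0.35 ± 0.06 under both (adjusted p = 0.00056). Added to IL-17A, IL-36γ raised it by 0.28 ± 0.06 (adjusted p = 0.00394).

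Rela encodes p65, the subunit that carries the main activation domain of the common p50 dimer (chromosome 19, 5637483 to 5648130, plus strand). Its levels were 35.4, 33.1 and 32.7 CPM in PBS ears, 37.8, 39.3 and 36.5 CPM after IL-17A, 41.03, 37.3 and 38.3 CPM after IL-36γ, and 41.05, 38.2 and 39.3 CPM after both. Every treated ear exceeded every PBS ear, by a margin of only a few CPM. The log2 fold changes were 0.17 ± 0.06 for IL-17A (adjusted p = 0.103), 0.21 ± 0.06 for IL-36γ (adjusted p = 0.0323) and 0.23 ± 0.06 for the combination (adjusted p = 0.0131). The change after IL-17A lay at −0.0021 when libraries were scaled by size alone.

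Nfkb2 and Relb encode p100, the precursor of p52, and RelB, which pair in the alternative branch of the pathway. Nfkb2 (chromosome 19, 46304320 to 46312385, plus strand) was at 21.6, 27.7 and 26.7 CPM in PBS ears and at 28.7, 26.9 and 23.9 CPM in IL-17A ears. It was at 29.7, 31.6 and 31.4 CPM after IL-36γ and 32.2, 30.1 and 32.7 CPM after both, above all PBS ears. It rose by 0.29 ± 0.10 under IL-36γ (adjusted p = 0.0444) and by 0.32 ± 0.10 under both (adjusted p = 0.0186), with 0.06 ± 0.10 under IL-17A (adjusted p = 0.688). Its exons share 299 bases with Psd on the opposite strand, a gene with 478 counts over the 12 libraries against between 594 and 1038 for Nfkb2 in each, and 531 bases with the noncoding gene AC114539.1. Whether counting used strand is not given in the sources used here.

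Relb passed the test in no comparison (chromosome 7, 19606217 to 19629438, minus strand). Its levels of 17.4, 22.2 and 20.5 CPM after PBS overlapped those of 21.1, 22.4 and 23.7 CPM after IL-17A, 23.9, 22.9 and 20.8 CPM after IL-36γ, and 19.9, 19.8 and 24.3 CPM after both. Log2 fold changes against PBS were 0.16 ± 0.11, 0.17 ± 0.11 and 0.09 ± 0.11, with adjusted p of 0.348, 0.27 and 0.531 by edgeR.

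The IκB proteins come next. Nfkbia encodes IκBα, a classic inhibitor induced by NF-κB itself, and its upstream stretch above holds a match to both motifs (chromosome 12, 55489410 to 55492647, minus strand). It stood at 92.5, 117 and 101 CPM in PBS ears, 109.5, 145 and 132 CPM after IL-17A, 156, 128 and 137 CPM after IL-36γ, and 142, 121 and 181 CPM after both. Groups given IL-36γ lay above all PBS ears, whereas 1 IL-17A ear fell among the PBS values. The log2 fold change was 0.31 ± 0.15 under IL-17A (adjusted p = 0.176), 0.43 ± 0.15 under IL-36γ (adjusted p = 0.0487) and 0.52 ± 0.15 under both (adjusted p = 0.0155). The treated groups overlapped each other.

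Nfkbie encodes IκBε, a further cytoplasmic inhibitor, and lies on chromosome 17 (45555703 to 45563169, plus strand). Its low levels were 7.25, 9.06 and 7.21 CPM in PBS ears, 10.7, 8.88 and 8.21 CPM after IL-17A, 8.12, 10.9 and 9.36 CPM after IL-36γ, and 11.2, 10.9 and 10.8 CPM after both. The combination was the group with all 3 ears above the highest PBS ear. It rose by 0.48 ± 0.14 after both cytokines (adjusted p = 0.0151), and the values after IL-17A and IL-36γ were 0.24 ± 0.14 (adjusted p = 0.27) and 0.27 ± 0.14 (adjusted p = 0.162).

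Bcl3 encodes a nuclear IκB-like protein that binds p50 and p52 dimers and acts as a co-regulator rather than a cytoplasmic anchor. Its gene lies on chromosome 7 (19808462 to 19822770, minus strand), and the κB search found nothing in its window. Its mRNA was at 3.10, 3.31 and 2.88 CPM in PBS ears, 5.49, 3.76 and 3.14 CPM after IL-17A, 6.46, 7.80 and 4.30 CPM after IL-36γ, and 9.48, 8.998 and 7.32 CPM after both. The ears given IL-36γ lay above all PBS ears, and those given both lay above all IL-17A ears but overlapped the IL-36γ group. Log2 fold changes against PBS were 0.41 ± 0.24 under IL-17A (adjusted p = 0.26), 1.00 ± 0.23 under IL-36γ (adjusted p = 0.00891) and 1.47 ± 0.23 under both (adjusted p = 0.000445). The value after IL-36γ falls just short of the fold threshold before rounding, and DESeq2 put it at 1.01 and called it. It was also called, at 1.00 to 1.20, when PBS replicate 1, PBS replicate 2, IL-17A replicate 3, IL-36γ replicate 3 or combination replicate 1 was left out.

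Bcl3 was also the 1 gene of the 10 called when IL-36γ was added to IL-17A, where 4.46% of all genes were called raised. It was higher by 1.06 ± 0.23 (adjusted p = 0.00525), and the value fell below the fold threshold without IL-17A replicate 3 (0.90) or without combination replicate 1 (0.98). The antisense gene Gm16175 shares 161 exon bases with Bcl3 and held 6 counts over the 12 libraries.

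Tnfaip3 encodes A20, an enzyme that edits ubiquitin chains on signalling proteins and ends NF-κB activation (chromosome 10, 19000910 to 19015657, minus strand). Of the 10 genes it had the highest change after IL-36γ alone. PBS ears held 20.3, 34.996 and 28.5 CPM, and IL-17A ears held 37.8, 61.4 and 42.5 CPM. After IL-36γ the values were 81.9, 61.8 and 98.6 CPM, and after both they were 38.5, 46.5 and 90.9 CPM. Every treated ear was above every PBS ear, and the combination group split, with 2 ears near the IL-17A values and replicate 3 among the IL-36γ values. The log2 fold change was 0.76 ± 0.31 under IL-17A (adjusted p = 0.125), 1.53 ± 0.32 under IL-36γ (adjusted p = 0.00468) and 1.07 ± 0.31 under both (adjusted p = 0.0162).

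The call of Tnfaip3 after the combination rests on single ears and on the scaling. Without combination replicate 3 the change was 0.61 (adjusted p = 0.0759), and without PBS replicate 1, the ear low in muscle, it was 0.89 (adjusted p = 0.0465), below the fold threshold. Scaling by library size alone gave 0.92 (edgeR adjusted p = 0.036), also below that threshold. The combination minus IL-36γ alone was −0.46 ± 0.31 (adjusted p = 0.504). Its interaction was −1.22 ± 0.44, larger in size than that of Rel, and did not pass (adjusted p = 0.139). On the linear scale the additive level was 100.1 CPM, and the excess over it was −41.5 ± 21.2 CPM.

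The 8 neutrophil markers summed to between 28.4 and 48.5 CPM in PBS ears, 45.8 and 113 CPM after IL-17A, 95.5 and 144 CPM after IL-36γ, and 148 and 280 CPM after both, and 3, 5 and 8 of them were called raised. Ly6g, a defining neutrophil marker, held no count in the PBS libraries. The combination ear with 90.9 CPM of Tnfaip3 held 196 CPM of neutrophil markers, between the other two ears of its group. Their part in the level of Tnfaip3 was not tested.

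Tnip1 encodes ABIN1, a ubiquitin-binding partner of A20 (chromosome 11, 54910785 to 54962917, minus strand). Its values were tight, at 31.8, 32.7 and 31.5 CPM in PBS ears, 33.9, 33.1 and 33.2 CPM after IL-17A, 39.6, 38.9 and 40.2 CPM after IL-36γ, and 48.4, 39.0 and 40.8 CPM after both. The 2 groups without IL-36γ lay below the 2 groups with it, and the IL-17A ears were above the PBS ears by less than 3 CPM. The log2 fold change was 0.06 ± 0.08 with IL-17A (adjusted p = 0.623), 0.31 ± 0.08 with IL-36γ (adjusted p = 0.0119) and, with both, 0.42 ± 0.08 (adjusted p = 0.00108). Against IL-17A alone the combination was higher by 0.36 ± 0.08 (adjusted p = 0.0047).

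**Figure D3:**
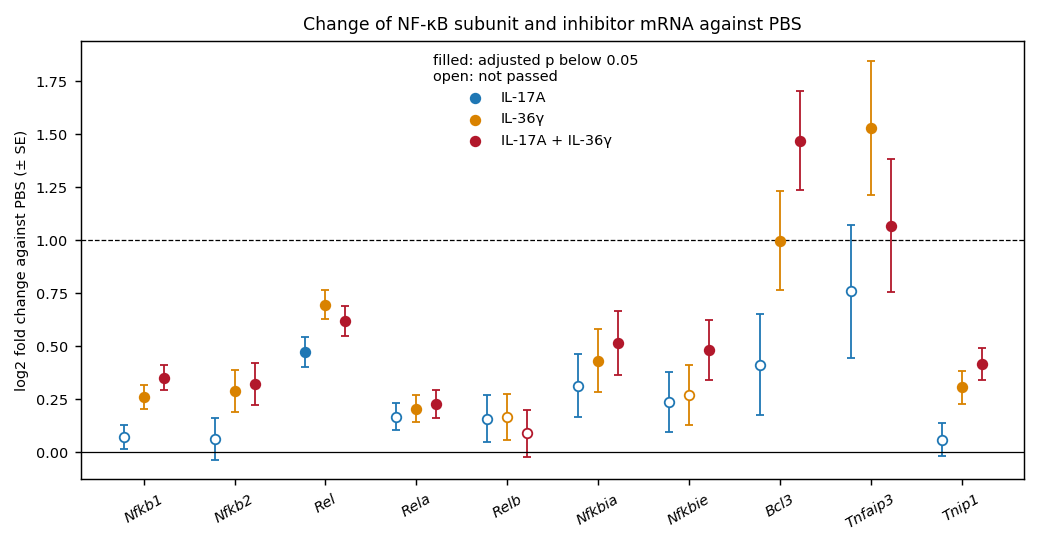
Log2 fold change against PBS (vertical axis, points, with SE bars) of the 10 genes in the 3 treated groups, with filled points where the adjusted p was below 0.05, open points where it was not, and a dashed line at the fold threshold of 1. Bcl3 and Tnfaip3 reach the line, the other genes stay at or below 0.70, and scaling by library size alone takes Nfkb1, Nfkb2, Rela, Relb and Tnip1 after IL-17A and Relb after the combination below 0.

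Between treated groups few differences passed. When IL-36γ was added to IL-17A, 3 of the 10 genes rose by adjusted p alone (Nfkb1, Bcl3 and Tnip1), against 15.1% of all genes, and 6 had groups that did not overlap, against 23.0% of all genes higher in this way. DESeq2 gave 6 of the 10. When IL-17A was added to IL-36γ, edgeR found no difference in any of the 10, at an adjusted p, at an unadjusted p below 0.05, or with DESeq2, and over all genes only 0.0103% were called and 0.0206% passed by adjusted p alone. Nfkb1 was the 1 gene whose groups did not overlap there, where 9.33% of all genes were higher in this way. The medians of the 10 genes there were 0.06 beside 0.00296 over all genes. IL-36γ against IL-17A gave none called and none past the adjusted p in edgeR, against 1.61% and 7.98% of all genes. Of the 10, 6 had an unadjusted p below 0.05, DESeq2 passed 5, and 5 had groups that did not overlap, against 15.6% of all genes higher in this way. A p above the threshold does not show that the groups were alike, since 3 mice a group leave standard errors of 0.06 to 0.31 on the log2 scale.

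Levels of different genes were compared per kilobase of exon (CPM per kb), with the union of exons in GENCODE vM21. The order depends on these lengths, which take in all annotated exons and were 12061 bases for Nfkb1 and 3072 for Rela. Before this division Nfkb1 had a mean of 98.2 CPM in PBS ears and Rela 33.7 CPM. Other lengths were not tried. Nfkbia was the most abundant of the 10 in all groups, at 64.4 ± 7.72 (SD, n = 3) in PBS ears, 80.1 ± 11.3 in IL-17A ears, 86.9 ± 8.88 in IL-36γ ears and 92.0 ± 19.1 in ears given both. Rela came next in each group, at 10.97 ± 0.47 after PBS, followed by Tnip1 at 9.04 ± 0.18 and Nfkb1 at 8.14 ± 0.33. Nfkb2 (5.53 ± 0.71), Rel (5.24 ± 0.25) and Relb (5.16 ± 0.62) did not differ beyond their spread after PBS. Tnfaip3 (3.87 ± 1.02), Nfkbie (2.58 ± 0.35) and Bcl3 (1.25 ± 0.09) were lowest. Tnfaip3 moved most in this order, from the eighth place after PBS to the fourth after IL-36γ at 11.2 ± 2.55, level with Tnip1 at 11.2 ± 0.20. Bcl3 was last throughout and after both cytokines, at 3.48 ± 0.46, was within the spread of Nfkbie at 3.60 ± 0.07.

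Within the sum of the 5 subunits, Rel took a larger share in treated ears. The summed level of the 5 subunits was 35.04 ± 1.32 CPM per kb in PBS ears, 39.7 ± 1.00 in IL-17A ears, 43.4 ± 0.93 in IL-36γ ears and 43.7 ± 0.69 in ears given both. Rel made up 15.0% ± 0.46 of it after PBS and 18.3% ± 0.17, 19.5% ± 1.28 and 18.4% ± 0.59 in the treated groups. The PBS ears (14.5% to 15.4%) were below all treated ears, and the exact permutation test of 3 against 3 mice cannot go below p = 0.1, the value it gave for each of these comparisons. By these exon lengths Rela held the largest share, at 31.4% ± 2.26 after PBS and between 29.2% and 31.0% on average after treatment. The sizes of all shares, and the ratio of Nfkbia to the sum, depend on the same lengths. The shares of Rela, Nfkb2 and Relb overlapped PBS in all 3 comparisons. The Nfkb1 share was 23.2% ± 0.50 after PBS and, below all PBS ears, 21.6% ± 0.52 after IL-17A. Nfkbia stood at 1.83 ± 0.15 times the summed subunit level after PBS and 2.02 ± 0.29, 2.002 ± 0.22 and 2.10 ± 0.40 times after the treatments, within the spread of each other.

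**Figure D4:**
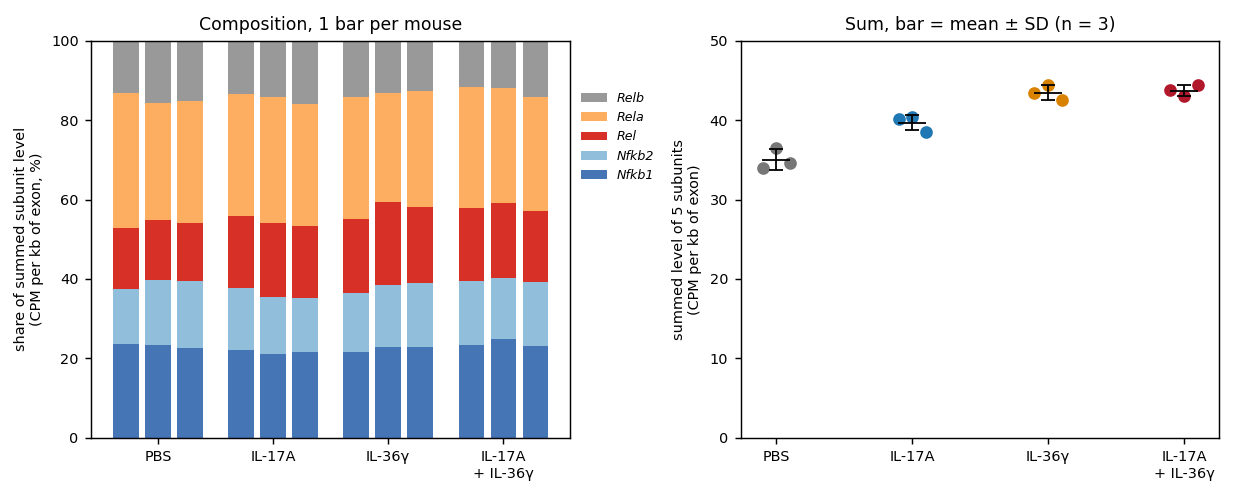
Left, share of each subunit in the summed level of the 5 subunits (%, 1 stacked bar per mouse), and right, that sum in CPM per kb of exon with 1 point per mouse and mean ± SD (n = 3), axis from 0. The Rel segment widens from 14.5% to 15.4% in PBS ears to 17.9% and more in treated ears, and the sum runs from 34.0 in the lowest PBS ear to 44.4 in the highest treated ear.

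The other genes of the pathway were grouped by role, and their counts are to be read against the shares over all genes tested. Among all genes 1.07%, 5.11% and 7.35% were called raised after IL-17A, IL-36γ and both, and 7.44%, 17.3% and 23.7% rose by adjusted p alone. Of 12 receptors, 3 were called raised in each group given IL-36γ: Tnfrsf1b, a TNF receptor (2.05 ± 0.16 on the log2 scale after both, adjusted p = 1.01e-05), Cd40 (1.31 ± 0.20, adjusted p = 0.000398) and Tlr2 (1.19 ± 0.16, adjusted p = 0.000171). By adjusted p alone 3, 9 and 7 receptors rose in the 3 comparisons and 0, 0 and 1 fell. Of 23 adaptors and kinases that link receptors to NF-κB, 3, 7 and 10 rose by adjusted p alone and 0, 0 and 2 fell. After both cytokines their changes lay between −0.76 and 0.78 around a median of 0.13, so none reached the fold threshold.

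Of 15 genes listed as other inhibitors and regulators, 1, 4 and 4 were called raised in the 3 comparisons with PBS, where the shares over all genes were 1.07%, 5.11% and 7.35%. By adjusted p alone 2, 8 and 7 of them rose and 0, 1 and 1 fell. Nfkbiz, which encodes the nuclear IκB protein IκBζ, was at 39.5 ± 4.54 CPM in PBS ears, 71.5 ± 11.02 in IL-17A ears, 81.0 ± 5.19 in IL-36γ ears and 90.8 ± 4.88 in ears given both. In log2 terms it rose by 0.86 ± 0.11 (adjusted p = 0.00619), by 1.04 ± 0.11 (adjusted p = 0.000113) and by 1.20 ± 0.11 (adjusted p = 2.24e-05), and its interaction of −0.69 ± 0.16 did not pass (adjusted p = 0.0636). Zc3h12a, which encodes the RNase regnase-1 and was the 1 gene of these called after IL-17A, rose by 1.53, 1.39 and 1.88 in the 3 comparisons. After both cytokines Tnfaip2, whose role as an inhibitor was not examined here, rose by 1.69 ± 0.21 (adjusted p = 9.73e-05). Nfkbid, another nuclear IκB, rose by 1.53 ± 0.22 (adjusted p = 0.000264).

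The median change was larger among textbook target genes than among the subunits. Of 24 listed targets 23 were tested, since Csf2 held 54 counts in all libraries, and 6, 7 and 13 were called raised with none lowered, against the same shares over all genes. The medians over these targets were 0.55, 0.78 and 1.17 on the log2 scale. Lcn2, which encodes the antimicrobial lipocalin-2, went from 2.51 ± 0.93 CPM after PBS to 17.0 ± 1.98, 48.5 ± 11.5 and 106 ± 10.2 CPM, a log2 fold change of 5.40 ± 0.24 under both (adjusted p = 7.08e-07). The neutrophil chemokines Cxcl5 and Cxcl1 rose by 4.88 ± 0.95 (adjusted p = 0.0016) and 3.98 ± 0.46 (adjusted p = 6.67e-05) after both. Il6 rose by 3.75 ± 0.50 (adjusted p = 0.000152). These large changes start from low levels, with PBS means of 0.44 CPM for Cxcl5, 0.86 CPM for Cxcl1 and 0.27 CPM for Il6. Lcn2 was the 1 target to pass the interaction test, at −1.62 ± 0.30 on the log2 scale (adjusted p = 0.0475). This adjusted p lies near the threshold, and its value under other scalings is not given here. Over all genes 25 positive and 82 negative interactions passed with TMM, 8 and 30 with RLE, and 1 and 2 with library size scaling. On the linear scale the sign for Lcn2 differed from that of Rel: the additive level was 63.0 CPM, and the mean after both exceeded it by 43.2 ± 8.96 CPM (SE).

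For the 3 genes with a call, the gene with the most similar profile over the 12 libraries was sought by the root-mean-square difference of log2 CPM, each gene centred on its own mean. Gpr183, which encodes an oxysterol receptor of leukocytes, was nearest to Rel at 0.0899. Slc39a8, a zinc transporter gene, was nearest to Bcl3 at 0.13, and Cd226, which encodes a receptor of T and NK cells, was nearest to Tnfaip3 at 0.297. The nearest within the 10 genes lay further away, as is likely when so few genes are searched. These were Nfkb1 for Rel at 0.174, Rel for Bcl3 at 0.425 and Nfkbia for Tnfaip3 at 0.467. By distance they ranked 834, 1590 and 156 among 19407 genes. These distances describe 12 libraries that share the 4 treatments.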

How the data were processed

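The deposited table holds raw read counts per Ensembl gene, 1 column for each of 12 libraries. Per the study's methods, total RNA was depleted of ribosomal RNA, made into stranded libraries and sequenced paired-end (76 cycles), and the authors aligned reads to mm10 with STAR 2.5.2b and counted them with featureCounts (Subread 1.5.1). The authors' 5 tables of comparisons hold their fold changes and p-values from DESeq2 1.30.0, of which only the symbol column was used. Groups came from the sample labels. In R 4.3.3, edgeR 4.0.16 was applied: filterByExpr with a minimum count of 10, TMM, and glmQLFit and glmQLFTest on the means of 4 groups in 1 fit of 12 libraries, with Benjamini-Hochberg adjustment over 19408 genes. The common biological coefficient of variation was 14.2%. Thresholds follow the study (adjusted p below 0.05, log2 fold change above 1), and an interaction needed the adjusted p alone. Similarity used log2 CPM with a prior count of 2. Exon lengths came from GENCODE vM21 and upstream windows from RefSeq. On simulated data for IL-17A + IL-36γ against PBS (19408 genes), 200 of 200 genes changed by a log2 value of 2 were recovered. Recovery needed an adjusted p below 0.05 and the right sign. The same run gave 2 false calls, counted only where the log2 fold change also exceeded 1 in size. False passes at an adjusted p alone are not given here, and recovery at the smaller log2 values of the 10 genes was not tested.

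The 10 genes and all gene lists were chosen with earlier results of these data known. Genes named beyond the 10 were Nfkbiz, up to 4 called genes of each pathway list with the largest change after both cytokines, and the nearest profile of each called gene. Csf2, Ly6g, Pax5, Psd, AC114539.1 and Gm16175 fall outside that rule and were named after their values were seen, as list genes with few or no counts and as genes that overlap a member. Alternatives were DESeq2 1.42.0 (likelihood ratio test), RLE or library size scaling, fits of the compared groups alone, no filter or a floor of 10 counts per library, the adjusted p without a fold threshold, the replicate number as a block, and each library left out. Counts of genes at an adjusted p alone were added as results after seeing the data. No library was a copy of another, with a chi-square per gene of 5.03 to 42.6 between libraries of a group. Counting error is part of the spread the test estimates, and libraries of 25293468 to 34759293 counts gave each of the 10 genes at least 78 counts in every library.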

Additional observations from a re-analysis of the deposited data

Results flagged for a closer look

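The effect of IL-17A on Rel differed with and without IL-36γ, by an interaction of −0.55 ± 0.10 (SE) on the log2 scale (edgeR quasi-likelihood test, adjusted p = 0.0459). Rel was higher by 0.47 after IL-17A than after PBS, and the combination differed from IL-36γ by −0.08 ± 0.07 (adjusted p = 0.631). Over the 18 alternatives run for it the value stayed negative, between −0.58 and −0.37, with an adjusted p of 3.15e-06 to 0.144. It passed the adjusted p in only 6 of the 18, and with neither RLE nor library size scaling. Macrophage markers moved the same way, with 4 of 10 passing this test at a negative sign, and their part in the result was not tested.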

How the results depend on the processing

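Of 1320 values of single genes under an alternative, 1260 kept their direction and side of the threshold, 6 newly passed it, 17 no longer did and 37 turned in sign, and the cause was not tested. Except in the interaction, this threshold joined the adjusted p to a log2 fold change above 1. A gene changed by much less could thus lose the adjusted p and still be counted as kept. Rela in IL-36γ against PBS was kept in 19 of 19 alternatives, at an edgeR or DESeq2 adjusted p of 0.0017 to 0.483. Rel in the interaction was kept in 6 of 18. Without the fold threshold the genes called were 1 (IL-17A), 8 (IL-36γ) and 9 (the combination) against PBS and 3 in the combination against IL-17A. Scaling by library size alone gave 1 called and 5 at an adjusted p alone in the combination against PBS, 3 at an adjusted p alone in IL-36γ against PBS and 0 in the interaction, where RLE also gave 0. It split the genes called over the whole table as 129 raised and 469 lowered in IL-17A against PBS (208 and 199 with TMM), 822 and 698 in IL-36γ against PBS (992 and 385), 1204 and 1667 in the combination against PBS (1426 and 1177), and 1 and 2 in the interaction (25 and 82). DESeq2 called 2 in IL-36γ against PBS and passed 3, 6 and 5 by adjusted p alone in IL-17A against PBS, the combination against IL-17A, and IL-36γ against IL-17A. Fits of only the groups compared passed 0 in IL-17A against PBS and 2 in IL-36γ against IL-17A. Leaving out each library gave 1 to 2 called in IL-36γ and in the combination against PBS and 0 to 1 in the combination against IL-17A and in the interaction, and at an adjusted p alone 0 to 1 in IL-17A against PBS, 4 to 7 in IL-36γ against PBS and 0 to 1 in IL-36γ against IL-17A.

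Library size scaling turned Nfkb1 (−0.10), Nfkb2 (−0.11), Rela (−0.0021), Relb (−0.015) and Tnip1 (−0.11) in IL-17A against PBS, Relb in the combination against PBS (−0.057), and the interactions of Nfkb2 (0.15), Rela (0.032) and Nfkbie (0.15), which RLE put at 0.0020. None of these values passed a threshold in any scaling. Leaving out a library gave values of both signs for Nfkb2 in IL-17A against PBS (−0.036 to 0.14), Relb in the combination against PBS (−0.0051 to 0.17), Relb (−0.16 to 0.0034) and Tnfaip3 (−0.14 to 0.56) in the combination against IL-17A, Rela (−0.0058 to 0.074) and Nfkbia (−0.079 to 0.22) in the combination against IL-36γ, Relb (−0.025 to 0.071) and Nfkbie (−0.082 to 0.16) in IL-36γ against IL-17A, and in the interaction Nfkb1 (−0.0034 to 0.087), Nfkb2 (−0.10 to 0.073), Bcl3 (−0.13 to 0.36), Nfkbie (−0.13 to 0.13) and Tnip1 (−0.052 to 0.16).

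Replicate numbers were shared between groups without a stated pairing. Deviations of same-numbered libraries correlated at −0.20 to 0.35 (median 0.10) and those of others at −0.50 to 0.36 (median −0.05), so the numbers were not taken to pair the mice. With the replicate block 1 gene (Rel) passed at an adjusted p alone in IL-36γ against IL-17A and 6 did in IL-36γ against PBS, and the counts called were unchanged at 0, 1, 2, 1, 0, 0 and 1 over the 7 comparisons.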
